A study of Mus musculus with 9 samples.

Results

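The proteasome genes on the array were taken as all genes whose symbol is Psm followed by a letter from a to g and a number, which gave 48 genes out of 23847 named genes. They were read by 61 probes, and the brightest probe stood for a gene that had several. Of the 48, 46 stood well above background on all 3 arrays of some group and were tested among 16504 genes in all. The other 2, Psma8, a subunit of the testis, and Psmb11, the catalytic subunit of the thymus cortex, were not well above background on any of the 9 arrays. Expression was measured in the abdominal aorta of B cell-deficient uMT mice on the C57BL/6 background, with 1 Agilent array for each of 9 samples in 3 groups of 3. The sham group (uMT_sham) had saline put around the aorta, and the CaCl2 group (uMT_Ca) had 0.5 M CaCl2 put there to induce an aneurysm. The third group (uMT_Ca+IgG) had the same CaCl2 and, in addition, mouse polyclonal IgG injected into the peritoneum. All groups thus lack the membrane IgM chain that B cells need to mature, and aortas were taken 7 days after CaCl2. The labels do not say whether the 3 samples of a group came from separate mice, so the p-values describe the spread among these 9 arrays, part of which may be technical.

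The proteasome is the protease that breaks down proteins tagged with ubiquitin. Its barrel, the 20S core, stacks rings of alpha subunits, which gate the entry, around rings of beta subunits, of which Psmb5, Psmb6 and Psmb7 cut peptide bonds. A 19S cap of ATPases (Psmc genes) and non-ATPase subunits (Psmd genes) binds ubiquitin chains, unfolds the substrate and feeds it into the barrel. Under interferon-gamma, and in cells of the immune system, Psmb8, Psmb9 and Psmb10 are built into new barrels in place of Psmb5, Psmb6 and Psmb7. The resulting immunoproteasome makes peptides that fit MHC class I molecules.

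The sequences just upstream of Psmb8 and Psmb9 are shown because these genes lie in the MHC region of chromosome 17 and rose most among the catalytic subunits, and those of Psmb5 and Psmb6 because they belong to the subunits that are replaced. Each runs 5′ to 3′ on the strand of the gene over the 250 bases before the start of the RefSeq transcript, in GRCm38.p6. Psmb8 covers chr17:34197945-34198194 on the plus strand, Psmb9 chr17:34187331-34187580 on the minus strand, Psmb5 chr14:54617996-54618245 on the minus strand and Psmb6 chr11:70525107-70525356 on the plus strand. Capitals mark matches on either strand to 4 motifs. These were GAAANNGAAA and GAAANNNGAAA, spacings of the interferon-stimulated response element, TTCNNNGAA, the gamma-activated sequence, and TGACNNNGC, the antioxidant response element bound by the Nrf1 and Nrf2 factors that drive proteasome genes. Matches to different motifs may overlap.
Psmb8: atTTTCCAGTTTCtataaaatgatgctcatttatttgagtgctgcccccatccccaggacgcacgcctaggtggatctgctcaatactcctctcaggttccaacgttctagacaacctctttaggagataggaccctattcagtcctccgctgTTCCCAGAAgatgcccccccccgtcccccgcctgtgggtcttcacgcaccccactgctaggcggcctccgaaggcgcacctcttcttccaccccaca
Psmb9: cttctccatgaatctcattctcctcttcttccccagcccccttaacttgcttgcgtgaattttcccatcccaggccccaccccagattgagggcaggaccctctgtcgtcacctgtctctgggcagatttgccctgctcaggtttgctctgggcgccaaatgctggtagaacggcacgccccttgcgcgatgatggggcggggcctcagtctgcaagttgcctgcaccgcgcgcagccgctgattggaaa
Psmb5: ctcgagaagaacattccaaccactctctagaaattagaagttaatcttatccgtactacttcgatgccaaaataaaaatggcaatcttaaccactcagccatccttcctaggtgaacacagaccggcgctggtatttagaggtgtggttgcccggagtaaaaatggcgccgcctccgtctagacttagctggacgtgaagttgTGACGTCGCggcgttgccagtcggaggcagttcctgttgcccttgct
Psmb6: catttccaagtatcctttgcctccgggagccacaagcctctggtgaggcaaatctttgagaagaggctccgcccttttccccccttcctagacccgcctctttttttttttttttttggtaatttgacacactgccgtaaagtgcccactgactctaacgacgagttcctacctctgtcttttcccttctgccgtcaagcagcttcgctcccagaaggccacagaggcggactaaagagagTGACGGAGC
The Psmb8 window held GAAANNNGAAA from base 248 and TTCNNNGAA from base 97 before the start, and the Psmb9 window held none of the 4. TGACNNNGC began 47 bases before the start of Psmb5 and 9 bases before that of Psmb6. Of the 48 genes, 40 had a window in the RefSeq table. A gene was counted if any of its windows matched, while the shares beside it are of single windows, so the 2 are not like measures. TTCNNNGAA was found at 2 of these 40 genes (Psmb8 and Psmg1), and in 7.02% of all 32851 windows of that length. TGACNNNGC was found at 5 of the 40 (Psmb5, Psmb6, Psmc6, Psmd12 and Psmd9), and in 10.2% of all windows. GAAANNGAAA was found at 3 (Psmb3, Psmd4 and Psmd9) and GAAANNNGAAA at 2 (Psmb3 and Psmb8), beside 2.98% and 2.38% of all windows. A match of letters is given as a description and was not tested as a binding site.

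Levels are log2 of the processed signal minus the 75th percentile of the array, so 1 unit is a doubling, and a level of 0 equals the array's 75th percentile. The share of probes well above background ran from 54.9% to 59.9% over the arrays. Sham replicate 3 lay on another slide and the other 8 arrays on 1 slide, and on that slide every CaCl2 array sat in row 1 and both sham arrays in row 2, so slide row and CaCl2 without IgG cannot be told apart there. CaCl2 plus IgG had replicate 1 in row 1 and replicates 2 and 3 in row 2. In CaCl2 against sham, all 8 smooth muscle markers fell, and all 6 pan-leukocyte and all 9 measured macrophage markers rose. Mean pan-leukocyte levels ran from -0.27 to 1.38 in sham, from 3.07 to 3.78 with CaCl2 and from 3.12 to 3.30 with CaCl2 plus IgG. Smooth muscle means ran from 6.28 to 6.48, from 3.84 to 4.88 and from 4.03 to 4.70. Despite the uMT genotype, the B cell receptor chain Cd79b rose with CaCl2 (2.39, SE 0.44, adjusted p = 0.00498), as did Jchain, the joining chain of secreted IgM and IgA (5.55, SE 0.67, adjusted p = 0.000926). In such whole tissue, fewer cells of a type and less RNA per cell cannot be told apart, and the part of the cell mixture in the results that follow was not tested.

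The first question was what CaCl2 changed in the proteasome of uMT aortas. All 3 immunoproteasome subunits rose, Psmb8 by 3.02-fold, Psmb9 by 2.99-fold and Psmb10 by 2.18-fold, while the standard catalytic subunits Psmb5, Psmb6 and Psmb7 did not pass the test. Outside this set, the cap subunits Psmd13 and Psmd4 rose and the alternative activator Psme4 fell. In total 10 of the 46 tested members passed an adjusted p of 0.05, 6 higher and 4 lower, where 36.4% of all tested genes did (17.4% higher and 19% lower). The share of members called lay below that of the array, a difference that was not tested, and their median change was -0.03 on the log2 scale, beside -0.08 over all genes. The count was 6 without sham replicate 3, 5 without CaCl2 replicate 3 and 5 with the slide row as a block.

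Psmb8 (LMP7), which replaces Psmb5, had levels of 2.18, 2.25 and 1.07 in sham replicates 1 to 3, 3.09, 3.06 and 4.14 in the CaCl2 arrays and 3.13, 3.10 and 2.90 in those with IgG. Every CaCl2 array lay above every sham array, with CaCl2 replicate 3 the highest of the 9 and sham replicate 3 the lowest. The difference of 1.59 (SE 0.38) had an adjusted p of 0.0135 in limma. Psmb8 stayed below 0.05 in 20 of 20 other settings, several of which left its sham and CaCl2 values unchanged. Its probe, A_51_P345367, lies at chr17:34337771-34337830 in mm9, the build of the array's probe coordinates, and is its only probe.

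Psmb9 (LMP2), the counterpart of Psmb6, read 2.12, 2.05 and 0.78 in sham, 2.63, 2.88 and 4.18 with CaCl2, and 2.94, 2.86 and 2.65 when IgG was added, through probe A_51_P369803 at chr17:34319174-34319233 in mm9. Again the sham and CaCl2 arrays did not overlap, and the same replicates 3 marked both ends. The rise was 1.58 (SE 0.46, adjusted p = 0.0301). Without sham replicate 3 it was 1.14 (adjusted p = 0.0867), and without CaCl2 replicate 3 it was 1.11 (adjusted p = 0.0779). A second probe for Psmb9 was not well above background on all arrays of any group and was not used.

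Psmb10 (MECL-1), the counterpart of Psmb7, gave 4.18, 4.20 and 3.74 in sham, 4.96, 4.68 and 5.85 with CaCl2, and 5.07, 4.97 and 4.47 when IgG was added. The groups did not overlap here either, and CaCl2 replicate 3 stood out upward. Its change was 1.12 (SE 0.31, adjusted p = 0.0249), from 1 probe at chr8:108459677-108459736 in mm9. It was 0.97 without sham replicate 3 (adjusted p = 0.0828) and 0.78 without CaCl2 replicate 3 (adjusted p = 0.0535). With both of these arrays left out, a setting added after the values were seen, only Psmb8 of the 3 passed, at 0.86 (adjusted p = 0.0190), against 0.67 for Psmb9 (adjusted p = 0.0527) and 0.63 for Psmb10 (adjusted p = 0.132). With the slide row as a block the changes were 1.93 for Psmb8 (adjusted p = 0.0239), 1.95 for Psmb9 (adjusted p = 0.0460) and 1.16 for Psmb10 (adjusted p = 0.0851). This block pooled the rows of both slides, and its only sham array in row 1 was sham replicate 3, from the other slide. Within row 1, CaCl2 minus that array was 2.36, 2.45 and 1.43 in the same order, so the blocked changes rest in part on it.

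For the standard catalytic subunits the differences were small. Psmb5, the chymotrypsin-like site, read 5.76, 5.94 and 5.86 in sham, 5.97, 5.78 and 6.04 with CaCl2, and 5.91, 5.98 and 5.69 when IgG was added, and its groups overlapped (change 0.08, SE 0.13, adjusted p = 0.648). Psmb6, the caspase-like site, was at 5.78, 5.94 and 5.77, then 5.74, 5.59 and 5.75, then 5.77, 5.61 and 5.58. The CaCl2 arrays lay just under the sham arrays, by a mean of -0.13 (SE 0.12) that missed the threshold (adjusted p = 0.415). Psmb7, the trypsin-like site, was at 2.99, 3.30 and 2.86, then 2.83, 2.66 and 2.76, then 2.94, 2.77 and 2.50. Its CaCl2 arrays too lay below sham without passing the test (-0.30, SE 0.17, adjusted p = 0.189).

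**Figure D1:**
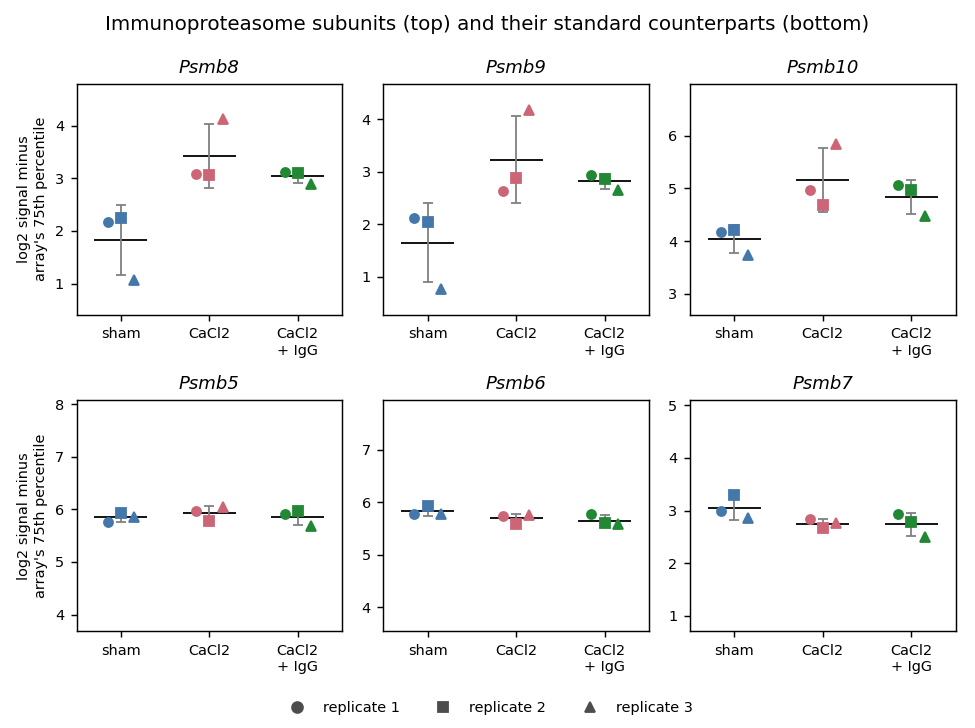
Log2 signal minus the array's 75th percentile (vertical axis, each panel spanning the same range) for the immunoproteasome subunits in the top row and their standard counterparts in the bottom row, in sham, CaCl2 and CaCl2 plus IgG. Points are arrays, with a shape for each replicate number, lines are group means and bars are 1 SD (n = 3). The top row shows the CaCl2 arrays above all sham arrays, with CaCl2 replicate 3 highest and sham replicate 3 lowest, and the bottom row shows group means within 0.31 of each other.

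The direct contrast set each inducible subunit against the subunit it replaces within the same array, which removes the scaling of the array. Relative to the sham mean, Psmb8 minus Psmb5 was 1.13, 1.29 and 2.11 with CaCl2, and 1.24, 1.13 and 1.22 when IgG was added, while the sham arrays spread over 0.44, 0.33 and -0.77. For Psmb9 minus Psmb6 the same values were 1.07, 1.47 and 2.61, then 1.35, 1.43 and 1.25, against 0.53, 0.29 and -0.81. For Psmb10 minus Psmb7 they were 1.14, 1.03 and 2.10, then 1.14, 1.21 and 0.97, against 0.20, -0.09 and -0.11. All 6 arrays of CaCl2-treated aortas thus lay above all 3 sham arrays in each of the 3 pairs. Against sham, the mean ratio of inducible to standard subunit was 2.85-fold, 3.28-fold and 2.68-fold higher with CaCl2, and 2.29-fold, 2.54-fold and 2.15-fold higher when IgG was added. Each of these 6 differences had a two-sided exact permutation p of 0.1, the smallest that 3 arrays against 3 can give, and 0.15 after Benjamini-Hochberg adjustment over the 9 pair comparisons. The comparisons share the sham arrays. Without sham replicate 3 and CaCl2 replicate 3, the CaCl2 differences were 0.83, 0.86 and 1.02 on the log2 scale, in the order of the pairs.

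The regulator PA28, a ring made by Psme1 and Psme2 that docks on the barrel and is also induced by interferon-gamma, was split. Psme2 read 5.005, 5.13 and 4.92 in sham, 5.42, 5.41 and 6.31 with CaCl2, and 5.52, 5.49 and 5.36 when IgG was added. Psme1 read 4.18, 4.30 and 3.90, then 3.999, 4.12 and 4.78, then 4.11, 4.005 and 4.03. Psme2 was thus higher in every CaCl2-treated array, while the Psme1 groups overlapped apart from the high CaCl2 replicate 3. Psme2 rose by 0.70 (SE 0.24, adjusted p = 0.0486), which passed in 8 of 20 other settings, among them neither the one without that array (0.40, adjusted p = 0.0706) nor the one without sham replicate 3 (0.65, adjusted p = 0.127). The change of Psme1 was 0.17 (SE 0.21, adjusted p = 0.554). Of 2 further Psme2 probes, 1 gave 0.69 and the other, described in the files as a pseudogene of the same subunit, gave 0.40, so signal of the gene and its copy may be mixed.

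Psme4 encodes PA200, a large single-chain activator that opens the barrel without ubiquitin and is known for degrading acetylated histones. Its levels were 1.07, 1.30 and 1.15 in sham, -0.08, 0.11 and 0.04 with CaCl2, and 0.04, -0.23 and 0.64 when IgG was added. The sham arrays were tightly grouped above all others, and CaCl2 plus IgG replicate 3 lay between. Psme4 fell 2.22-fold with CaCl2 (-1.15, SE 0.21, adjusted p = 0.00492), the smallest p of the 46 members, and a second probe gave -0.82. Its probe lies at chr11:30756055-30756114 in mm9. When arrays were centred on the median instead, the fall was -0.68 (adjusted p = 0.0526). Psme3, the nuclear PA28 gamma (-0.06, adjusted p = 0.889), and Psmf1, the inhibitor PI31 (0.05, adjusted p = 0.906), did not pass.

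Among the 11 non-ATPase subunits of the cap, 2 rose, 0 fell and 9 did not pass, with a median change of -0.03. Psmd13 (Rpn9), a scaffold subunit of the lid, showed the largest rise of all members. It read 1.43, 0.93 and 0.67 in sham, 2.99, 2.74 and 3.25 with CaCl2, and 2.94, 2.89 and 1.58 when IgG was added. Psmd4 (Rpn10), a receptor for ubiquitin chains, read 3.97, 3.03 and 2.94, then 4.85, 4.75 and 4.98, then 4.87, 4.81 and 3.97. In both genes the CaCl2 arrays cleared the sham arrays, and CaCl2 plus IgG replicate 3 fell back towards sham. With CaCl2, Psmd13 rose 3.94-fold (1.98, SE 0.37, adjusted p = 0.00528) and Psmd4 2.92-fold (1.54, SE 0.32, adjusted p = 0.00841).

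Psmd13 and Psmd4 each rest on 1 probe, at chr7:148084248-148084307 and chr3:94836627-94836686 in mm9. Both calls held when either sham replicate 3 or CaCl2 replicate 3 was left out. With both left out, the changes were 1.68 and 1.30 and the adjusted p 0.0661 and 0.0869. The brightness of the arrays also differed by group. The 75th percentile of the signal was 271, 302 and 267 units in sham, 496, 461 and 381 with CaCl2, and 449, 455 and 269.5 when IgG was added. Within groups the order was not always shared. CaCl2 replicate 3, the dimmest CaCl2 array at 381, had the highest Psmd13 (3.25) and Psmd4 (4.98). The array with the low value among those given IgG, replicate 3, is the one in which Psmd13 and Psmd4 were low, and the part of array brightness in these results was not tested. Their partners in the cap did not follow. Psmd7, which holds the deubiquitinase Psmd14 in place, was at -0.38 (SE 0.14, adjusted p = 0.0587), Psmd14 at 0.07 (adjusted p = 0.845), Psmd12 at -0.03 (adjusted p = 0.887) and Psmd11 at -0.31 (adjusted p = 0.0834). A second, dimmer Psmd12 probe gave -0.53, so the probes of that gene differed.

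**Figure D2:**
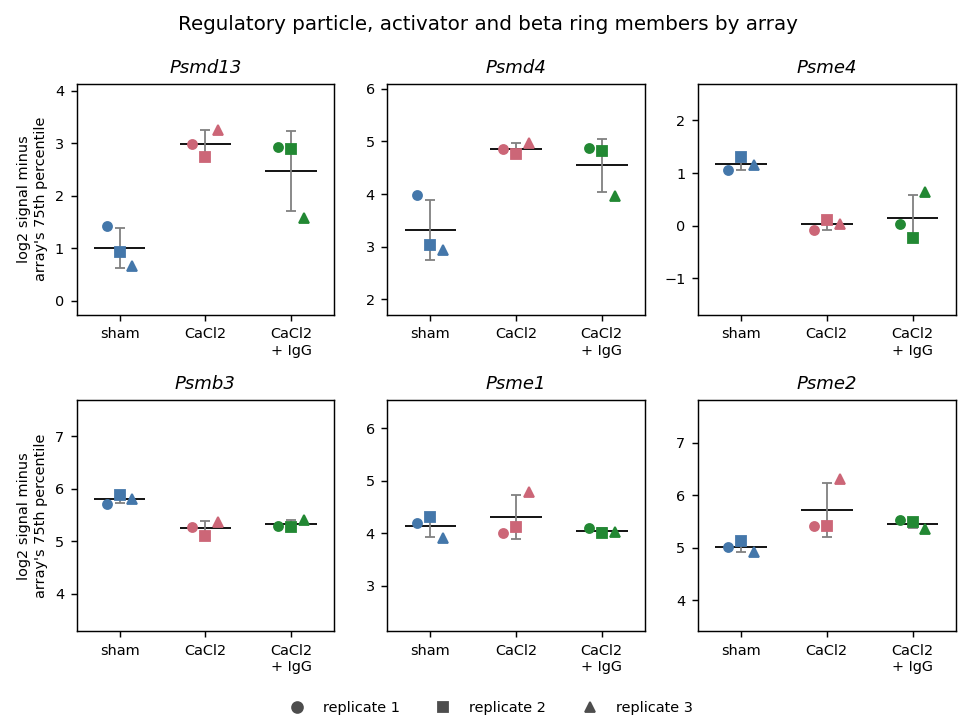
Log2 signal minus the array's 75th percentile (vertical axis, each panel spanning the same range) for Psmd13, Psmd4, Psme4, Psmb3, Psme1 and Psme2 in sham, CaCl2 and CaCl2 plus IgG. Points are arrays, lines are group means and bars are 1 SD (n = 3). Psmd13 and Psmd4 are high in all 3 CaCl2 arrays and in 2 of the 3 arrays with IgG, Psme4 is highest in the 3 sham arrays, and Psme1 stands out in CaCl2 replicate 3 alone.

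Of the 6 ATPases that form the motor at the base of the cap, 0 rose, 2 fell and 4 did not pass, and the median change was -0.22. Psmc4 read 3.68, 4.002 and 3.86 in sham, 3.46, 3.30 and 3.39 with CaCl2, and 3.38, 3.47 and 3.18 when IgG was added. Psmc1 read 5.71, 5.84 and 5.59, then 5.37, 5.31 and 5.33, then 5.41, 5.45 and 5.38. All CaCl2-treated arrays were lower than all sham arrays in both. Psmc4 fell by 0.46 (SE 0.14, adjusted p = 0.0314) and Psmc1 by 0.38 (SE 0.12, adjusted p = 0.0348), but with the arrays centred on the median both turned sign, to 0.0086 and 0.095. A second Psmc1 probe gave -0.60. Psmc4 passed in 10 and Psmc1 in 5 of 20 other settings.

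In the barrel, 0 of the 7 measured alpha subunits passed, with changes from -0.15 (Psma4) to 0.20 (Psma7) around a median of -0.02. Of the 7 standard beta subunits, 0 rose, 1 fell and 6 did not pass, with a median of -0.20. The 1 was Psmb3, which has no active site and read 5.71, 5.87 and 5.81 in sham, 5.26, 5.09 and 5.37 with CaCl2, and 5.29, 5.26 and 5.41 when IgG was added. All 6 arrays of CaCl2-treated aortas were below the sham arrays, and Psmb3 fell 1.47-fold (-0.55, SE 0.12, adjusted p = 0.0110). Centred on the median it changed by -0.08 (adjusted p = 0.820). The helpers that assemble the barrel (Psmg1 to Psmg4) ran from -0.08 to 0.26, and those that assemble the cap (Psmd5, Psmd9 and Psmd10) from 0.09 to 0.32, and 0 of the 7 passed.

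Counted together, the 31 measured standard subunits of barrel and cap had 2 members higher, 3 lower and 26 that did not pass. Their median change and that of all genes were both -0.08. Centring on the median of each array moved the change of every gene up alike, and the median of all genes from -0.08 to 0.39, so the sign of small shifts depends on this choice. The arrays of CaCl2 and sham did not overlap in 17 of the 46 members, 7 higher and 10 lower, beside 56.6% of all genes (24.6% higher and 31.9% lower).

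**Figure D3:**
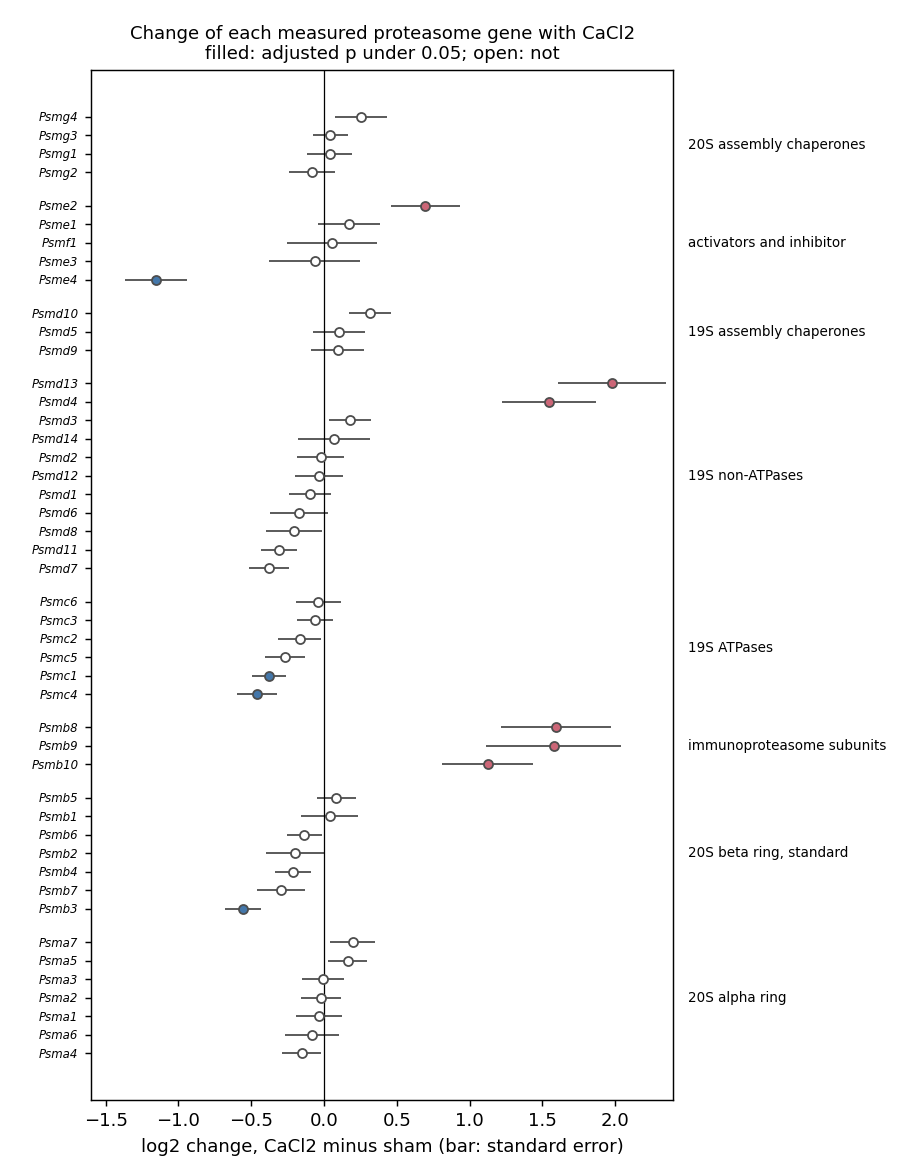
Log2 change in CaCl2 minus sham (horizontal axis, with the standard error as a bar) for each of the 46 tested proteasome genes, grouped by role. Filled points passed an adjusted p of 0.05 (10 genes) and open points did not. The immunoproteasome subunits stand to the right at 1.12 to 1.59, Psmd13 and Psmd4 at 1.98 and 1.54 and Psme4 to the left at -1.15, while most other subunits lie near 0.

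Related genes were described in the same fit, in which 17.4% of all genes were called higher with CaCl2 and 19% lower. In MHC class I processing, which takes up peptides from the immunoproteasome, 8 of 12 genes rose with CaCl2, 0 fell and 4 did not pass, with a median of 0.94. They included the peptide transporter chain Tap2 (3.11, SE 0.41, adjusted p = 0.00129), the class I heavy chains H2-D1 (1.09, adjusted p = 0.0118) and H2-K1 (0.89, adjusted p = 0.0212) and Tapbpl, a peptide editor (1.28, adjusted p = 0.0163). The count was 5 of 12 without sham replicate 1, 2 without sham replicate 3, 4 without CaCl2 replicate 3 and 1 without both of the latter. Of 15 measured genes of interferon-gamma signalling and early targets, 7 rose, 1 fell and 7 did not pass, with a median of 1.01, and 4 rose with the slide row as a block. CaCl2 replicate 3 was the highest array for 13 of these 15 genes, so the size of the list's rise rests in part on that array. Irf8, a transcription factor of myeloid cells (2.84, SE 0.38, adjusted p = 0.00138), the receptor-associated kinases Jak1 (1.01, adjusted p = 0.00559) and Jak2 (0.94, adjusted p = 0.00579) and the feedback inhibitor Socs1 (1.94, adjusted p = 0.0133) were among those that rose. Ciita, the switch of MHC class II genes, fell (-2.47, SE 0.58, adjusted p = 0.0126). As with Psmd13 and Psmd4, the dim array, CaCl2 plus IgG replicate 3, lay nearer to sham for Tap2 (2.36, against 3.68 and 3.61 in the other arrays with IgG) and at the sham level for Ciita (-0.30, against -2.94 and -2.39), and the part of array brightness was not tested. Ifng itself was not well above background on all arrays of any group.

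Helpers outside the Psm names changed little. Among 12 measured proteasome cofactors, 0 rose, Adrm1, a ubiquitin receptor of the cap, fell (-0.49, SE 0.15, adjusted p = 0.0391) and 11 did not pass, with a median of -0.12. Pomp, which matures new barrels and favours the immunoproteasome, was at 0.13 (adjusted p = 0.525), and the transcription factors Nfe2l1 (Nrf1) and Nfe2l2 (Nrf2) at -0.15 (adjusted p = 0.395) and 0.32 (adjusted p = 0.242). Among 14 genes of ubiquitin supply and delivery, the shuttle Rad23b rose (0.80, adjusted p = 0.0482), Nploc4, a partner of the unfoldase Vcp, fell (-0.54, adjusted p = 0.0168) and 12 did not pass. Rad23b too was low in the dim CaCl2 plus IgG replicate 3, at -0.31, below the sham arrays (-0.16 to -0.04).

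A few arrays held most of the extremes. Sham replicate 2 was the highest of the 9 arrays for 25 of the 46 members and CaCl2 replicate 3 for 16. CaCl2 plus IgG replicate 3 was the lowest for 23 and sham replicate 3 for 13. The same counts were not made over all genes, so they are not a result about proteasome genes in particular. CaCl2 replicate 3 was also the highest array for 13 of the 15 interferon genes, the exceptions being Ifngr1 (4.69 there and up to 4.80 with IgG) and Ciita (-2.69 there and -0.28 to -0.59 in sham). Gbp2, a guanylate-binding GTPase, was at 5.54 there and between 1.94 and 3.25 in the other 8 arrays. Irf1, a factor that binds the Psmb9 promoter, was at 4.93 there and between 2.47 and 3.71 elsewhere, and the chemokine Cxcl9 at 3.85 there and at most 0.19 elsewhere. Relative to sham, the mean of the 15 interferon genes was 2.13 in this array against 0.93 and 0.64 in the other CaCl2 arrays. The macrophage mean was 3.00 against 2.72 and 2.65, and the pan-leukocyte mean 3.08 against 2.45 and 2.36. Other immune cell lists stood further above the other CaCl2 arrays there. The dendritic mean was 2.76 against 1.91 and 1.96, and the B and plasma mean 3.64 against 2.63 and 2.78. For T and NK the mean was 3.16 against at most 2.29, and 7 of its 9 genes were highest in this array. At the other end, sham replicate 3 had the lowest immunoproteasome mean (-0.65 relative to sham, against 0.32 and 0.33) and also the lowest pan-leukocyte mean (-0.98, against 0.30 and 0.67). The highest CaCl2 array and the lowest sham array of the immunoproteasome mean were thus also those of the pan-leukocyte and interferon means. They were those of the macrophage, T and NK, B and plasma, dendritic and MHC class I processing means too. For the neutrophil mean the lowest sham array was replicate 1 instead. The part of cell mixture or of interferon genes in the rise was not tested.

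**Figure D4:**
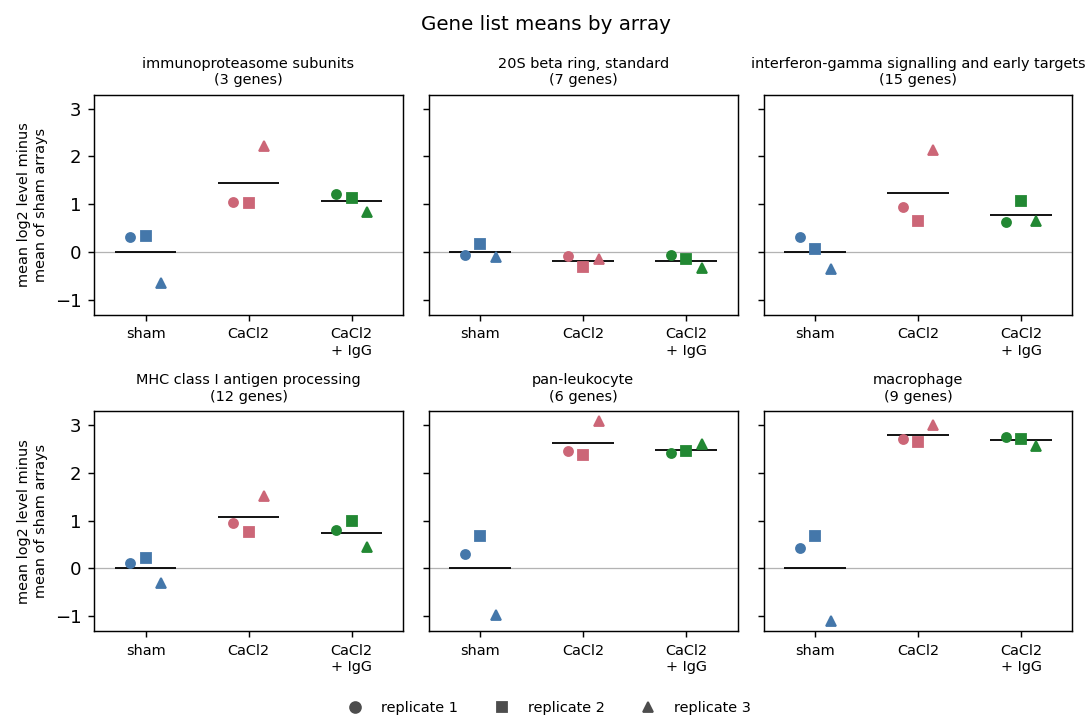
Mean log2 level of 6 gene lists on each array, relative to the mean of the 3 sham arrays (vertical axis, shared by all panels), in sham, CaCl2 and CaCl2 plus IgG. Points are arrays, with a shape for each replicate number, and lines are group means. CaCl2 replicate 3 stands at 2.22 for the immunoproteasome subunits and 2.13 for the interferon genes, above the other CaCl2 arrays, while the standard beta ring stays between -0.34 and 0.16 on all arrays.

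The second question was whether IgG changed the response to CaCl2. None of the 46 members differed between CaCl2 plus IgG and CaCl2 alone in limma, and 0% of all genes did. At an unadjusted p under 0.05 the count was 242 of the 16504 genes, or 1.47%, and 0 of the members. Differences ran from -0.52 (SE 0.37) for Psmd13 to 0.13 (SE 0.21) for Psme4, around a median of -0.06, beside -0.02 over all genes, and 9 of 46 were above 0. In 41 of the 46 members, replicate 3 was the lowest of the arrays with IgG, a count that was not made over all genes. The arrays of the 2 groups did not overlap in 1 member, Psmc1 (0.08, SE 0.12), chosen here after its values were seen, beside 5.02% of all genes.

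The 3 immunoproteasome subunits had lower means with IgG, with differences of -0.39 (SE 0.38) for Psmb8, -0.41 (SE 0.46) for Psmb9 and -0.33 (SE 0.31) for Psmb10, each with an adjusted p of 1.00. These lower means rest on CaCl2 replicate 3, without which the differences were -0.03, 0.06 and 0.02. The within-array differences from the standard subunits changed by -0.31, -0.37 and -0.31 in the order of the pairs, with exact permutation p of 0.5, 0.7 and 0.7, and by -0.01, 0.08 and 0.03 without that array. The arrays with IgG lay close together in each pair. Their SD was 0.06, 0.09 and 0.12 in the order of the pairs, against 0.52, 0.80 and 0.59 with CaCl2 alone. For Psmb8 minus Psmb5, CaCl2 replicate 3 stood at 2.11 relative to the sham mean, and replicates 1 and 2 at 1.13 and 1.29. The difference in spread was not tested.

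In the third comparison, CaCl2 plus IgG against sham, 7 of the 46 members passed, 3 higher and 4 lower, beside 28.9% of all genes (14.7% higher and 14.2% lower). The median change of the members was -0.09, against -0.10 over all genes. The arrays did not overlap in 17 members, 6 higher and 11 lower, beside 44.3% of all genes (20.3% higher and 24% lower). Psmd13 (1.46, SE 0.37, adjusted p = 0.0208), Psmd4 (1.23, SE 0.32, adjusted p = 0.0232) and Psmb8 (1.21, SE 0.38, adjusted p = 0.0441) rose. Psme4 (-1.02, SE 0.21, adjusted p = 0.00918), Psmb3 (-0.47, SE 0.12, adjusted p = 0.0233), Psmc4 (-0.50, SE 0.14, adjusted p = 0.0266) and Psmd7 (-0.46, SE 0.14, adjusted p = 0.0352) fell. The count fell to 1, Psme4, without sham replicate 2, without sham replicate 3 or without IgG replicate 1, and to 2 without IgG replicate 2. Psmd7 read 3.15, 3.53 and 3.35 in sham, 3.04, 2.90 and 2.96 with CaCl2, and 2.90, 2.96 and 2.78 when IgG was added, with sham above all others.

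Psmb10 (0.80, SE 0.31, adjusted p = 0.0888), Psmb9 (1.17, SE 0.46, adjusted p = 0.0928) and Psme2 (0.44, SE 0.24, adjusted p = 0.189) had no overlap with sham and did not pass. The Psmb8 call was lost without sham replicate 3 (0.83, adjusted p = 0.116), as were those of Psmd13 (1.29, adjusted p = 0.0715) and Psmd4 (1.05, adjusted p = 0.0790). Within slide row 2, which held sham replicates 1 and 2 and IgG replicates 2 and 3, the difference was 0.78 for Psmb8, 0.67 for Psmb9 and 0.53 for Psmb10. In MHC class I processing, 2 of 12 genes rose (Tap2 by 2.39 and H2-D1 by 0.82), 0 fell and 10 did not pass. Among the interferon genes 5 of 15 rose, 0 fell and 10 did not pass. Of all genes, 14.7% were called higher in this comparison and 14.2% lower. All 6 pan-leukocyte markers rose in this comparison too. This comparison and that of CaCl2 with sham share the sham arrays.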

How the data were processed

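Total RNA of 9 aorta samples was hybridised to 9 Agilent arrays in 1 colour (Cy3), and groups were taken from the sample titles. The deposited scanner files hold spot intensity on a linear scale, made with Feature Extraction 10.7.1.1 per the file headers, while the submitters' processing notes name version 9.5.1.1. Background was already subtracted by the authors' software, and no scaling between arrays is recorded. A series table of intensity that the authors deposited served as an alternative. In that table all 9 arrays had the same median (29.7) and the same SD of log2 values (3.68). Its values had thus been made alike between arrays, as in the separate setting with quantile normalization. The purification kit and the day of the sham samples are not settled in the sources used here.

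From the log2 processed signal, the 75th percentile of each array, taken without control spots, was subtracted. Control and outlier spots were left out, no probe was saturated, and a probe was kept if it cleared background on all 3 arrays of some group. Probes were named by RefSeq accession (27235 of 55681), then by symbol (4146), then by the file (1598). All 16504 genes and 9 arrays entered 1 fit in limma 3.58.1 (R 4.3.3, files read with the data.table package, version 1.17.8), with Benjamini-Hochberg adjustment and a threshold of 0.05. The pairs of subunits were compared by two-sided exact permutation. Named are the catalytic subunits, Psme1, Psme2, up to 8 further called members per comparison by smallest p and up to 4 called genes per related list, with others named as list extremes, as background to them or after their values were seen. The members, lists and motifs were chosen with earlier results of these data known. The fit was tested on simulated data in which 200 of the 16504 genes differed between CaCl2 and sham, fewer than the 6004 called in the real data. It called 2% of log2 changes of 0.5, 52% of 1, 66% of 1.5 and 78% of 2, with 9 false calls. With so few changed genes the Benjamini-Hochberg adjustment is stricter, so these shares do not carry over to the real fit. Small changes that did not pass may still have been missed. Unmapped columns of sample values numbered 0.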

Additional observations from a re-analysis of the deposited data

How the results depend on the processing

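Of 20 other settings for CaCl2 against sham, Psmb8 passed in 20, Psmd13, Psmd4 and Psme4 in 19, Psmb3 in 18, Psmb9 in 16, Psmb10 in 15, Psmc4 in 10, Psme2 in 8 and Psmc1 in 5. The settings are not independent of each other. Those that changed only the filter, the IgG arrays or the groups in the fit kept the sham and CaCl2 values of a gene with 1 probe. Centring on the median turned Psmc1 to 0.0948 and Psmc4 to 0.00862 there. With the slide row as a block, which pooled the rows of both slides, 3383 genes and 5 proteasome genes passed in place of 6004 and 10. The replicate block, for numbers that the labels do not tie to shared animals, also left 5, and changed no other count by over 1.5 times. Deviations of same-numbered arrays correlated between -0.20 and 0.23, so the numbers were not taken as pairs. Leaving out 1 array gave 3897 to 7420 genes and 5 to 10 proteasome genes. Without sham replicate 3 and CaCl2 replicate 3, a setting added after seeing the data, 2432 and 3 passed. For CaCl2 plus IgG against sham, the main counts were 4763 and 7. Median centring gave 2996 and 4, no filter on dim probes 3 proteasome genes, 1 array left out 3013 to 6679 and 1 to 10, and both arrays left out 3151 and 3. For CaCl2 plus IgG against CaCl2, 1 array left out gave 0 to 2 genes and 0 proteasome genes, and Psmb9 minus Psmb6 ran from -0.693 to 0.0763 and Psmb10 minus Psmb7 from -0.511 to 0.0252, turning sign without CaCl2 replicate 3. With both arrays left out they were also 0.0763 and 0.0252. The cause of these changes was not tested, beyond fewer arrays in the settings that leave arrays out. The 3 arrays in each group limit the precision.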
